A study of Mus musculus with 76 samples.

Results

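Calcineurin is the calcium- and calmodulin-dependent protein phosphatase of neurons, and the genes described here are those of its subunits, its Rcan inhibitors and the Nfatc transcription factors it acts on. The 10 genes, of 56923 in the count tables, were taken by family membership: the catalytic subunits Ppp3ca, Ppp3cb and Ppp3cc, the regulatory subunit Ppp3r1, the inhibitors Rcan1, Rcan2 and Rcan3, and the factors Nfatc2, Nfatc3 and Nfatc4. The family here means these 10 genes. The regulatory subunit Ppp3r2 is not among them and is read with the wider lists of the pathway. The family was chosen by the RNA counts of Ppp3cc, which had differed between genotypes at E11.5 in these same libraries. The E11.5 difference in Ppp3cc is therefore given only as a description, without a test, and the question put to the data was whether the other genes of the family moved with it.

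The tissue was developing diencephalon of C57BL/6J mouse embryos on embryonic days E11.5 and E17.5. In the hs754-humanized line, the human sequence of hs754, a candidate enhancer, had replaced its mouse ortholog by genome editing, and founders were backcrossed to C57BL/6J for several generations. Homozygous humanized and homozygous wildtype embryos came from separate crosses, so litter and genotype cannot be told apart. A replicate was 1 litter, pooling 6 embryos at the earlier stage and 3 at the later, so pool size also changed with stage. RNA was measured in 4 replicates of each genotype and stage, 16 libraries in all. Chromatin immunoprecipitation with sequencing (ChIP-seq) gave peak lists for H3K27ac, H3K4me3 and H3K27me3 from 2 E11.5 and 3 E17.5 replicates of each genotype. CTCF lists came from 3 E17.5 replicates of each.

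Calcineurin is an enzyme of one catalytic and one regulatory chain. Calcium-loaded calmodulin switches it on, and it then strips phosphates from Nfatc proteins, which move into the nucleus and bind DNA at sites with a GGAAA core. In the nervous system the enzyme is known for its part in synaptic depression, in vesicle recycling and, with the Nfatc factors, in axon outgrowth. Rcan proteins bind and restrain the enzyme, and one Rcan1 transcript is itself switched on by NFAT, from an internal promoter.

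The promoters on which the results turn are shown first, each as the 250 bases that end just before an annotated start, read 5′ to 3′ on the strand of the gene from mouse genome build mm39 with GENCODE M39 starts. Capitals mark GGAAA or TTTCC, the core of NFAT sites on either strand. Ppp3cc is shown as the gene that set the question, Ppp3cb as the catalytic paralog with most cores, Rcan1 for the contrast between 2 of its starts, and Nfatc4 as the factor whose promoter H3K27ac was lower at the later stage. The regions are chr14:70526990-70527239 for Ppp3cc, chr14:20596669-20596918 for Ppp3cb, chr16:92263163-92263412 for the upstream Rcan1 start and chr16:92197009-92197258 for its canonical start, all on the minus strand, and chr14:56060351-56060600 on the plus strand for Nfatc4.
Ppp3cc promoter: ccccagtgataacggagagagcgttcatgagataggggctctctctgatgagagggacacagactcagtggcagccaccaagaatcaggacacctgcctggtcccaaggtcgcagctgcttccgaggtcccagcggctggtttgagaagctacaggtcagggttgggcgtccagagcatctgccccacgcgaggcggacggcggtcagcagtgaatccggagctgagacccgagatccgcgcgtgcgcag
Ppp3cb promoter: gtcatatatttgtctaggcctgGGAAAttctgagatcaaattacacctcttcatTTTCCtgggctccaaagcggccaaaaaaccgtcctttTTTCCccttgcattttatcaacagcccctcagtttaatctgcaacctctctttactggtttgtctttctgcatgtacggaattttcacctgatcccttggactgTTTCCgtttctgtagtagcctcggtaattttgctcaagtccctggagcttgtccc
Rcan1 upstream start: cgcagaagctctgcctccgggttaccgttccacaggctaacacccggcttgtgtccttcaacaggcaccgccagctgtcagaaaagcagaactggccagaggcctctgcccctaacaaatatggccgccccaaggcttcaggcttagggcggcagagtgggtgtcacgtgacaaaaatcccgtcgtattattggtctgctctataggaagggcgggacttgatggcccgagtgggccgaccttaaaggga
Rcan1 canonical start: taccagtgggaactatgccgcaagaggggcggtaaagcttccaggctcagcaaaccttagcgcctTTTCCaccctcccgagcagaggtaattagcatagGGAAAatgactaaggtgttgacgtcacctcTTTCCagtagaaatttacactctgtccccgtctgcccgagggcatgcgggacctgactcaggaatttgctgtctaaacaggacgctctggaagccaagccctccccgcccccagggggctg
Nfatc4 promoter: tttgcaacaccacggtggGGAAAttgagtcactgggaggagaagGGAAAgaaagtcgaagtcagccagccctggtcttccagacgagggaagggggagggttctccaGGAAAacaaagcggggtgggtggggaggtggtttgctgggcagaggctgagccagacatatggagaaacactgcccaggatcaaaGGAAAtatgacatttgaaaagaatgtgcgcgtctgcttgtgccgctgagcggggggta

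The Ppp3cc promoter held no core, had a GC content of 62.4% and held 17 CpG dinucleotides. The promoters of Ppp3ca and Ppp3r1 held no core either. Ppp3cb and Nfatc4 each held 4 cores, against 2.03% of all 21770 promoters of that length with 4 or more. At Rcan1 the upstream start had none and the canonical start 3, a number reached or passed by 7.538% of promoters. At least 1 core was present in 58.63% of promoters, so a single match, as at Nfatc3, is common. These are matches of letters and say nothing of whether a factor was bound.

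The RNA libraries held 16414369 to 24272569 counts on genes, and 48.1% to 58.4% of all reads were assigned to no gene. The E17.5 wildtype replicate 1 library stood apart: its median correlation with the libraries of its group, on log CPM (counts scaled to a common library total of 1e6, with TMM factors), was 0.935, against 0.979 or more for every other library. Values that rest on it are also given without it. The summed level of 8 diencephalic markers lay between 1211 and 1987 CPM in all libraries, and that of 4 hindbrain and spinal cord markers was at most 0.259 CPM. Fewer cells of a type and less RNA per cell cannot be told apart in such bulk tissue.

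CPM divided by the kilobases of merged exons (RPKM) put Ppp3r1 first in all 4 groups, with 46.3 ± 5.07 (SD, n = 4) in E11.5 wildtype and 112 ± 11.7 (SD, n = 4) in E17.5 humanized. Ppp3cb stood at 18.6 ± 2.49 RPKM in E11.5 wildtype, Ppp3ca at 7.32 ± 1.59 and Ppp3cc at 1.20 ± 0.158 (SD, n = 4 each), so the catalytic subunits did not overlap. Ppp3cb was not separable there from Rcan1, at 16.4 ± 2.65 RPKM (SD, n = 4), and each gene from Ppp3ca through Rcan3, Nfatc3 and Rcan2 to Nfatc4 overlapped the next in order. This order depends on the length used: per kilobase of the longest transcript, a choice added after the data were seen, Ppp3cb at 31.1 to 43.3 lay above Rcan1 at 20.8 to 30.04 in E11.5 wildtype, and Ppp3ca at 12.3 to 20.1 above Rcan3 at 5.71 to 7.09. Ppp3r1 stayed first and Nfatc2 last in all 4 groups by that length. Nfatc2 was the lowest of the 10 in every group, between 0.229 and 0.559 RPKM on average. By E17.5, Rcan2 and Rcan3 lay among the high members, at 39.9 and 30.6 RPKM in wildtype, while Nfatc3 and Nfatc4 had come down to 1.54 and 0.853 RPKM.

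**Figure D1:**
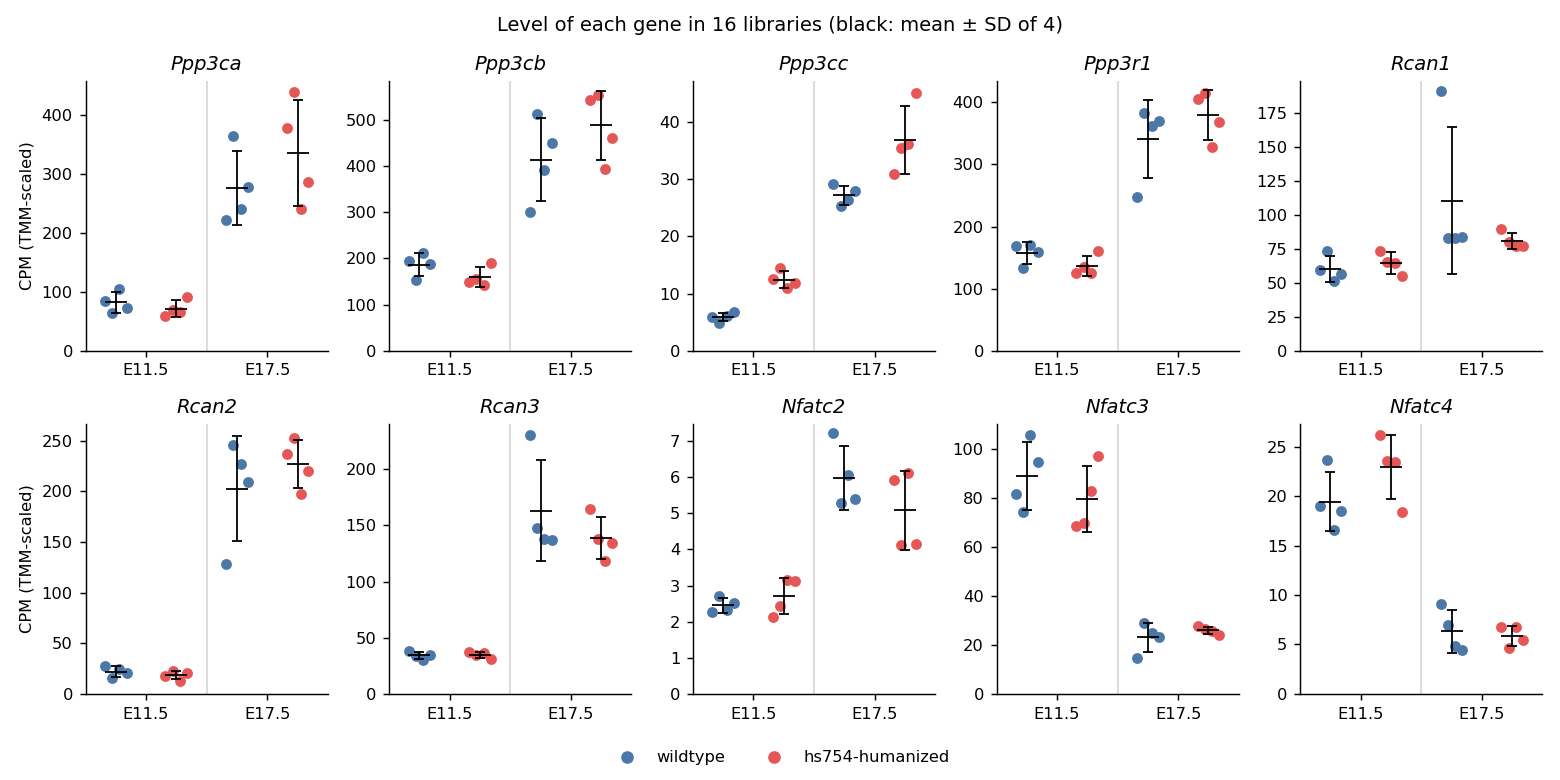
Level of each of the 10 genes in TMM-scaled CPM (linear axis from 0, with its own range in each panel), a point for each of the 16 libraries and black marks for the mean ± SD of 4, by stage and genotype. Of the members, only Ppp3cc has genotypes that do not overlap, and it does so at both stages, while E11.5 and E17.5 do not overlap for any of the 10 genes.

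The catalytic subunits were examined first between genotypes. Ppp3cc (ENSMUSG00000022092.13, chr14:70454485-70526989, minus strand) encodes the gamma catalytic chain, known best from testis. At E11.5 its level was 5.90, 4.88, 6.07 and 6.77 CPM in the 4 wildtype libraries, on 92 to 167 reads. The humanized libraries had 12.5, 14.4, 10.9 and 11.8 CPM, on 211 to 321 reads. The genotypes did not overlap, and the humanized level was 2.06-fold that of wildtype, a log2 difference of 1.04 with a standard error of 0.145. That difference chose the family and is not tested here.

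Neither catalytic paralog showed such a difference at E11.5. Ppp3ca (ENSMUSG00000028161.19, chr3:136375445-136643491, plus strand), the alpha chain that predominates in brain, had 85.2, 64.4, 105 and 72.8 CPM in wildtype and 59.3, 69.6, 65.5 and 91.7 CPM in humanized libraries. Its values overlapped, and its log2 difference, humanized minus wildtype, was -0.22 with a 95% interval from -0.61 to 0.18 (edgeR quasi-likelihood test, adjusted p = 0.598). Ppp3cb (ENSMUSG00000021816.13, chr14:20548406-20596668, minus strand), the beta chain, had 194, 153, 212 and 188 CPM in wildtype and 150, 155, 143 and 190 CPM in humanized libraries. These values overlapped too, and the log2 difference was -0.25, with an interval from -0.54 to 0.030 (edgeR, adjusted p = 0.577). Both intervals end below the difference seen in Ppp3cc, but that value chose the family and may be overstated for that reason, so this is no test against it.

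The same held for the regulatory subunit. Ppp3r1 (ENSMUSG00000033953.12, chr11:17109192-17150382, plus strand) encodes the calcium-binding chain that every calcineurin enzyme of the brain needs. It had 169, 133, 170 and 159 CPM in wildtype and 125, 135, 125 and 160 CPM in humanized libraries at E11.5. The groups overlapped, and the log2 difference was -0.23, with an interval from -0.49 to 0.029 (edgeR, adjusted p = 0.577).

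Among the inhibitors, which bind the catalytic chain, none separated the genotypes at E11.5. Rcan1 had 59.5, 73.7, 50.9 and 56.3 CPM in wildtype and 73.7, 65.4, 64.2 and 54.7 CPM in humanized libraries. Rcan2 had 27.2, 15.3, 24.7 and 20.9 CPM in wildtype and 17.8, 22.5, 12.9 and 20.7 CPM in humanized libraries. Rcan3 had 37.8, 33.7, 30.4 and 34.96 CPM in wildtype and 37.0, 35.02, 36.01 and 31.2 CPM in humanized libraries. The genotypes overlapped for each inhibitor. Their log2 differences were 0.077 for Rcan1, -0.28 for Rcan2 and -0.0017 for Rcan3, and the interval for Rcan3, from -0.23 to 0.23, was the narrowest of the family.

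The Nfatc factors, the enzyme's transcription factor substrates, overlapped as well. Nfatc2 had 2.26, 2.71, 2.33 and 2.51 CPM in wildtype and 2.14, 2.42, 3.16 and 3.11 CPM in humanized libraries. Nfatc3 had 81.7, 74.1, 105 and 94.6 CPM in wildtype and 68.3, 69.7, 82.8 and 97.2 CPM in humanized libraries. Nfatc4 had 19.0, 23.7, 16.6 and 18.5 CPM in wildtype and 26.2, 23.5, 23.5 and 18.4 CPM in humanized libraries. None of these factors moved past its spread, with log2 differences of 0.12, -0.19 and 0.21.

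Over the 9 genes other than Ppp3cc, then, 0 were called at E11.5 by edgeR, 0 had an unadjusted p under 0.05, and DESeq2 called 0. The background was the same, since edgeR called 0.0% of 17816 genes at this stage, of which 1058 had an unadjusted p under 0.05, and DESeq2 called 2 genes. By overlap, 1.61% of all genes had every humanized library above every wildtype library and 0.892% had every one below, and 0 of the 9 did either. On simulated counts for this comparison, 72.7% of genes given a 2-fold change were recovered and 11 unchanged genes were called. Those counts also held genes changed 1.5-fold and 4-fold, and the number of changed genes bears on the adjusted p. The share recovered may therefore not hold for the real counts, where edgeR called 0 genes.

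At E17.5 Ppp3cc was again higher in humanized libraries, by less. It had 29.2, 25.3, 26.4 and 27.9 CPM in wildtype and 30.9, 35.4, 36.1 and 45.2 CPM in humanized libraries. The genotypes did not overlap, which was so in this direction for 0.48% of the 18763 genes tested and in the other for 0.73%, where no member lay. The fold was 1.35, the log2 difference 0.43 with a standard error of 0.176 and an interval from 0.046 to 0.82. It did not pass the adjustment over all genes (edgeR, adjusted p = 0.808), and an exact permutation test of this single gene, two-sided, gave p = 0.0286, the smallest that 4 against 4 allows. Without the wildtype library that stood apart, the log2 difference was 0.47, and it was 0.27 when edgeR was given offsets for gene GC content.

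None of the other 9 genes separated the genotypes at E17.5. Ppp3ca had 222, 364, 241 and 277 CPM in wildtype and 377, 438, 240 and 286 CPM in humanized libraries, a log2 difference of 0.28 with an interval from -0.24 to 0.80. Ppp3cb had 301, 513, 392 and 451 CPM against 543, 555, 395 and 462 CPM, a log2 difference of 0.23 with an interval from -0.22 to 0.69. Ppp3r1 had 248, 384, 362 and 370 CPM against 406, 416, 329 and 368 CPM, a log2 difference of 0.15 with an interval from -0.26 to 0.56. Without the wildtype library that stood apart, which was the lowest of its group for all 3 genes, the differences were 0.18 for Ppp3ca, 0.11 for Ppp3cb and 0.023 for Ppp3r1. Each of the intervals from all 8 libraries holds both 0 and the Ppp3cc difference. The genotype difference of the 3 subunits did not change between stages beyond its error (edgeR interaction, log2 differences 0.48, 0.47 and 0.36, adjusted p = 0.464, 0.462 and 0.462).

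The inhibitors and factors gave the same answer at E17.5. Rcan1 had 191, 83.1, 82.9 and 83.8 CPM in wildtype and 89.6, 79.7, 77.4 and 77.1 CPM in humanized libraries. Its log2 difference of -0.46 fell in size to -0.048 without the wildtype library at 191 CPM. Rcan2 had 128, 245, 227 and 209 CPM against 237, 252, 197 and 220 CPM, and Rcan3 had 230, 147, 138 and 137 CPM against 164, 138, 119 and 134 CPM, with log2 differences of 0.16 and -0.24. Here too the wildtype library that stood apart lay outside the rest, low for Rcan2 and high for Rcan3, and without it the differences were -0.0086 and -0.027. Nfatc2 had 7.21, 5.27, 6.07 and 5.40 CPM against 5.92, 4.13, 6.13 and 4.14 CPM. Nfatc3 had 14.8, 29.1, 24.9 and 23.3 CPM against 27.5, 26.3, 25.6 and 24.2 CPM. Nfatc4 had 9.15, 7.01, 4.83 and 4.43 CPM against 6.72, 4.61, 6.75 and 5.42 CPM. The factors differed by -0.24, 0.16 and -0.12 on the log2 scale, and by -0.14, 0.0029 and 0.12 without the library that stood apart, and the genotypes overlapped for each of them.

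At this stage edgeR called 0 of the 10 members and 0.0% of the 18763 genes, of which 207 had an unadjusted p under 0.05. Ppp3cc was the 1 member with an unadjusted p under 0.05 in edgeR and in DESeq2, and DESeq2 called 0 members and 1 gene. Simulated 2-fold changes were recovered in 15.2% of genes at E17.5, so the test had little reach here. For the interaction of genotype with stage, edgeR called 0.0% of 20234 genes, with 1610 at an unadjusted p under 0.05, and DESeq2 called 0. Of the 9 members tested for it, 0 were called by either tool and 0 had an unadjusted p under 0.05. The Ppp3cc difference shrank by 0.63 on the log2 scale from E11.5 to E17.5, given as a description because the E11.5 libraries chose the gene.

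**Figure D2:**
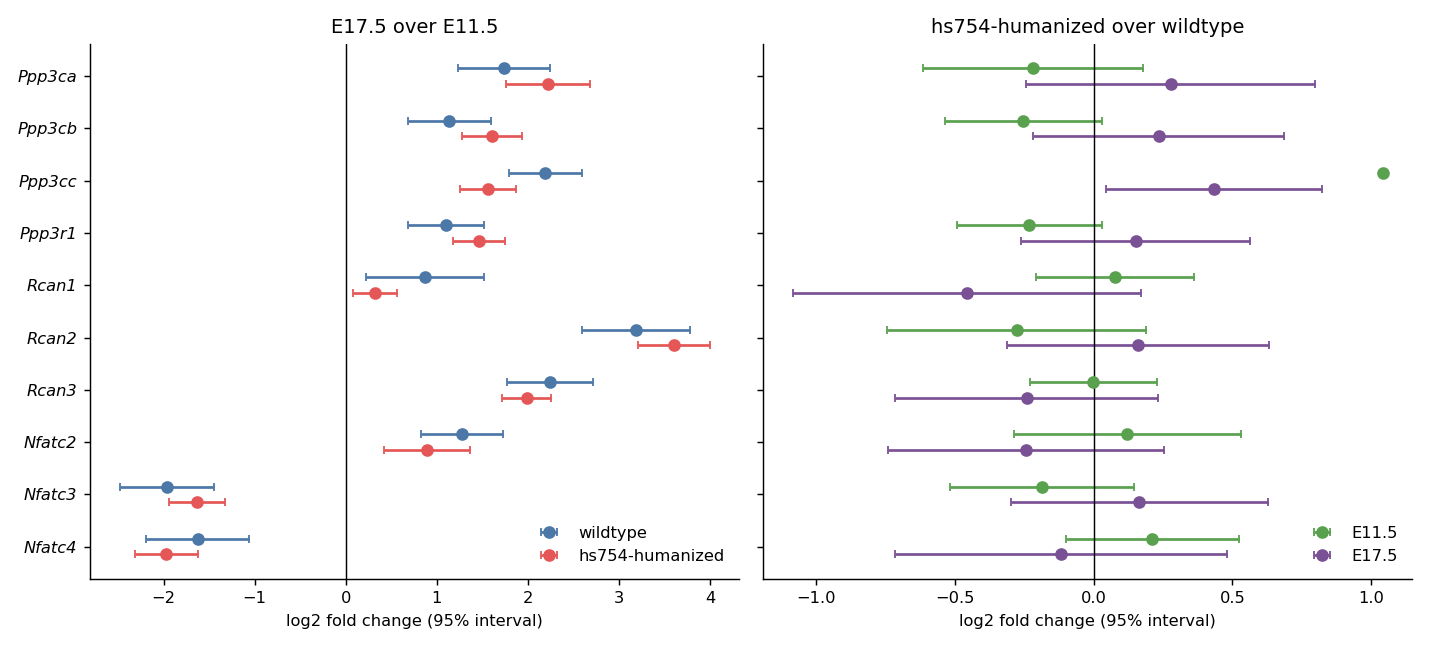
Log2 fold changes of the 10 genes with 95% intervals from edgeR as bars, E17.5 over E11.5 by genotype (left panel) and humanized over wildtype by stage (right panel); Ppp3cc between genotypes at E11.5 is a point without an interval because that value chose the family. The stage intervals of Ppp3cc rest on the same E11.5 libraries and are a description, not a test. On the left 8 genes lie above 0 and Nfatc3 and Nfatc4 below it in both genotypes, and on the right every interval drawn other than that of Ppp3cc at E17.5 spans 0.

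Stage moved every member, in the same direction in both genotypes. The catalytic subunits, the regulatory subunit, the inhibitors and Nfatc2 rose from E11.5 to E17.5, and Nfatc3 and Nfatc4 fell. Stage effects of this kind were common: edgeR called 55.7% of 18583 genes in wildtype and 77.7% of 18781 in humanized tissue, so the 9 of 9 members called in each, with Ppp3cc left out, are to be read against those shares. In wildtype 29.0% of genes were called higher and 26.7% lower, and in humanized tissue 38.2% and 39.5%, where these members had 7 higher and 2 lower. The wildtype shares rest on the E17.5 library that stood apart. Without it edgeR called 13994 of 19351 genes in wildtype, 6968 of them higher. For each of the 10 genes the 2 stages did not overlap in either genotype, in the higher direction as for 25.2% and 35.1% of all genes, and in the lower direction as for 25.1% and 36.7%. The stages are compared over separate libraries of each genotype, but pool size changed with them.

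Ppp3ca rose 3.34-fold in wildtype (log2 difference 1.74, SE 0.229, edgeR adjusted p = 9.79e-05) and 4.65-fold in humanized tissue (2.22, SE 0.211, adjusted p = 1.21e-06). The rise in Ppp3cb was 2.198-fold in wildtype (log2 difference 1.14, SE 0.206, edgeR adjusted p = 0.000861) and 3.04-fold in humanized tissue (1.60, SE 0.150, adjusted p = 1.03e-06). With the GC offsets the Ppp3cb call was lost in both, at a log2 difference of 0.19 (edgeR adjusted p = 0.456) and of -0.14 (adjusted p = 0.559). Ppp3cc was 4.56-fold higher at E17.5 in wildtype (log2 difference 2.19, SE 0.181) and 2.95-fold higher in humanized tissue (1.56, SE 0.143). These differences rest on the E11.5 values that chose the gene and are given as a description, with no test. Ppp3r1 rose 2.15-fold and 2.76-fold (log2 differences 1.10 and 1.46, edgeR adjusted p = 0.000632 and 7.70e-07). With the GC offsets Ppp3r1 kept its call, but at 0.57 in humanized tissue.

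Of the inhibitors, Rcan2 rose most, 9.11-fold in wildtype and 12.2-fold in humanized tissue (log2 differences 3.19 and 3.61, SE 0.269 and 0.179, edgeR adjusted p = 4.71e-06 and 6.06e-09). This was the largest change of the family. Rcan3 rose 4.73-fold and 3.96-fold (log2 differences 2.24 and 1.99, edgeR adjusted p = 1.03e-05 and 3.39e-08). Rcan1 moved least, with log2 differences of 0.87 (edgeR adjusted p = 0.0267) and 0.32 (adjusted p = 0.0203). In wildtype the Rcan1 difference was 0.45 without the library that stood apart (edgeR adjusted p = 0.00952), and the call was lost without E11.5 replicate 1, 3 or 4 (adjusted p from 0.0716 to 0.0768). In humanized tissue it was lost without E11.5 replicate 2, 3 or 4 or E17.5 replicate 1 (edgeR adjusted p from 0.0606 to 0.0675), with no filter on low counts (adjusted p = 0.136) and in a fit of all 16 libraries (adjusted p = 0.210), and with the GC offsets it was 0.91.

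The Nfatc factors parted. Nfatc2 rose 2.42-fold in wildtype and 1.86-fold in humanized tissue (log2 differences 1.28 and 0.89, edgeR adjusted p = 0.000378 and 0.00239), from a low level. In humanized tissue the GC offsets put the Nfatc2 rise at 1.40. Nfatc3, the most abundant of the factors at E11.5, fell 3.90-fold and 3.10-fold (log2 differences -1.96 and -1.63, edgeR adjusted p = 5.13e-05 and 5.19e-07). Nfatc4 fell 3.08-fold and 3.92-fold (log2 differences -1.62 and -1.97, edgeR adjusted p = 0.000336 and 3.07e-07). Without the E17.5 wildtype library that stood apart, the wildtype differences of the 9 members besides Rcan1 lay between 1.16 and 3.34 for those that rose and were -1.81 and -1.87 for Nfatc3 and Nfatc4.

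Cell-type markers moved with stage in the same libraries. The summed level of 8 neuronal markers went from between 1315 and 2107 CPM at E11.5 to between 5627 and 7020 CPM at E17.5, with 7 of 8 called higher in each genotype. The 8 neural progenitor markers went from between 4175 and 4827 CPM to between 923 and 1204 CPM, with 7 of 8 called lower. The 5 astrocyte markers went from between 48.2 and 58.6 CPM to between 243 and 374 CPM, with 5 of 5 called higher. The 5 erythroid markers lay between 871 and 2873 CPM at E11.5 and between 234 and 985 CPM at E17.5. The overlap came from the E17.5 wildtype library that stood apart, at 985 CPM. Without that library the E17.5 sums lay between 234 and 506 CPM, and the stages did not overlap. With all libraries, 1 erythroid marker was called higher and 1 lower in wildtype, against 1 higher and 3 lower in humanized tissue. The part of cell makeup in the stage differences of the family was not tested.

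Because the catalytic chains substitute for each other in the enzyme, their shares of the summed catalytic level were compared. The sum at E11.5 was 27.1 ± 4.07 RPKM in wildtype and 24.8 ± 3.31 in humanized tissue, and it stood at 71.4 ± 14.05 and 86.1 ± 14.8 by E17.5 (SD, n = 4 each). Ppp3cb made up 68.7% ± 1.63 of it in E11.5 wildtype and 57.5% ± 2.67 in E17.5 wildtype, and 64.1% ± 1.17 and 56.6% ± 1.56 in humanized tissue (SD, n = 4 each). Ppp3ca went the other way, from 26.8% ± 2.15 to 34.5% ± 1.97 in wildtype and from 25.7% ± 1.85 to 34.4% ± 3.43 in humanized tissue. The stages did not overlap for either gene in either genotype. This is given as a description, without a test, because the Ppp3cc level that chose the family is part of the sum behind both shares.

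The share of Ppp3cc, given as a description because its E11.5 level chose the gene, had wildtype values of 4.45% ± 0.542 at the earlier stage and 8.01% ± 2.00 at the later, without overlap. In humanized tissue it was 10.3% ± 1.65 and 8.96% ± 2.43, with overlap (SD, n = 4 each). Between genotypes at E11.5 the share was 5.81 percentage points higher in humanized tissue, and that of Ppp3cb 4.66 points lower, as a description, since the Ppp3cc level enters both. At E17.5 the genotypes overlapped in the share of all 3 subunits. In E11.5 humanized tissue the gamma chain made up 8.11% to 11.9% of the catalytic RNA by merged exons. These shares depend on the length used. Per kilobase of the longest transcript the means there were 3.49 for Ppp3cc, 32.5 for Ppp3cb and 13.7 for Ppp3ca, a smaller part for Ppp3cc. The E17.5 wildtype share was 10.6% in the library that stood apart and 5.78%, 7.51% and 8.13% in the other 3.

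**Figure D3:**
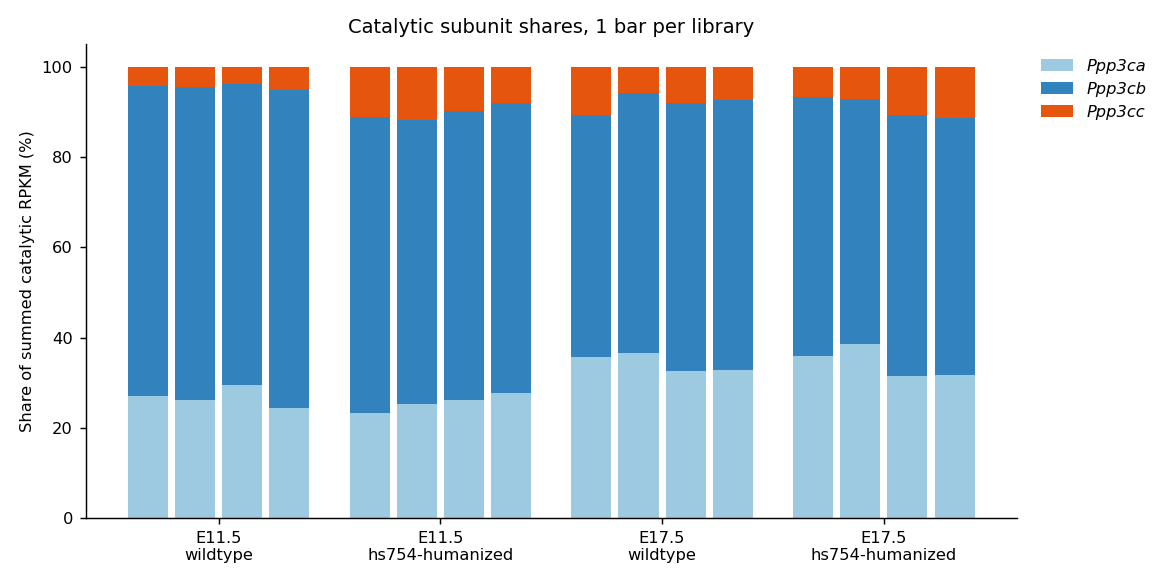
Share of Ppp3ca, Ppp3cb and Ppp3cc in their summed level (percent of RPKM), with 1 stacked bar for each of the 16 libraries, grouped by stage and genotype. On average Ppp3cb falls from 68.7% to 57.5% in wildtype and from 64.1% to 56.6% in humanized tissue as Ppp3ca rises, and Ppp3cc goes from 4.45% to 8.01% in wildtype but is already at 10.3% at E11.5 in humanized tissue.

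Over the 16 libraries, the likeness of each gene to Ppp3cc was measured as the root mean square distance between centred log2 CPM profiles, a description that uses the E11.5 libraries and so the difference that chose the gene. The nearest of 20233 genes were Hapln4, at 0.355, Fam237b at 0.376 and A730056A06Rik at 0.381. Hapln4 encodes a link protein of the perineuronal matrix. Of the family, Rcan3 was nearest at 0.505, in rank 210, followed by Ppp3ca in rank 619, Ppp3cb in rank 840 and Ppp3r1 in rank 891. Nfatc4 and Nfatc3 were far off, in ranks 18688 and 18717. Over the 24 tested genes within 1 Mb of Ppp3cc on chromosome 14, the E11.5 log2 differences lay between -0.14 and 1.28, with 22 above 0, 1 at an unadjusted p under 0.05 in edgeR and 0 called. The E17.5 differences of the same genes lay between -1.11 and 0.22, with 20 below 0 and 0 called. Both extremes of size were Fgf17, named after its values were seen. The share of all genes on each side of 0 was not counted, and a regional effect was not tested. Over all genes tested, the median log2 difference between genotypes was 0.0028 for the earlier stage and -0.026 for the later. The E17.5 signs include the wildtype library that stood apart and were not counted without it. Sorbs3, 5047 bases from the end of Ppp3cc, differed by 0.28 at E11.5 (SE 0.147, edgeR adjusted p = 0.577). At that stage Slc39a14, 13689 bases from the Ppp3cc start, differed by 0.067 (SE 0.108, edgeR adjusted p = 0.770). The next tested protein-coding genes, Pdlim2 and Polr3d, differed by 0.19 (SE 0.234, edgeR adjusted p = 0.709) and 0.040 (SE 0.114, adjusted p = 0.875). With the GC offsets the E11.5 differences of Slc39a14 and Polr3d turned below 0. The E17.5 differences of these neighbours depended on single libraries. Leaving out 1 library at a time gave -0.74 to -0.24 for Sorbs3, -0.80 to -0.32 for Pdlim2 and -0.51 to -0.11 for Polr3d. Slc39a14 then ranged across 0, from -0.17 to 0.098.

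Wider lists of the pathway were read by stage, against the 29.0% of all genes called higher and 26.7% lower in wildtype and the 38.2% and 39.5% in humanized tissue. Without the wildtype library that stood apart, 13994 of 19351 genes were called in wildtype, 6968 of them higher. Calm2 and Calm3 encode calmodulin, the calcium sensor that activates the enzyme, and both rose in each genotype. Calm2 rose by 1.08 and 1.07 on the log2 scale in wildtype and humanized tissue. Calm3 rose by 1.24 and 0.59, and its wildtype value was 0.77 without the library that stood apart. With the GC offsets the humanized rise was 0.39 for Calm2 and 1.11 for Calm3. Of 6 other inhibitors, anchors and immunophilins, 5 were tested in wildtype, where Akap5, the postsynaptic anchor of the enzyme, was higher and Ppia, the cyclophilin that carries cyclosporin to it, lower. Akap5 rose by 2.48 and 3.15 on the log2 scale, and Ppia fell by 0.50 and 0.94, the wildtype call of Ppia being lost under DESeq2 (adjusted p = 0.0545) and several other settings. In humanized tissue 4 of these 6 were lower, Cabin1, Chp1 and Fkbp1a among them, and 2 higher. The second was Ppp3r2, the regulatory subunit of testis, at an average of 3.35 CPM at E17.5 against 0.0205 CPM at E11.5, and at 1.94 against 0.0253 CPM in wildtype, where its counts were too low to test.

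The kinases that return Nfatc proteins to the cytoplasm did not move together. In wildtype 0 of 5 were called by edgeR, and in humanized tissue Gsk3b and Dyrk2 were higher, by 0.61 and 1.06 on the log2 scale. Of 5 partners of NFAT at DNA, 4 rose in each genotype. Mef2a rose by 2.04 and 2.66, Mef2c by 2.05 and 2.63, Fos by 1.53 and 1.43 and Mef2d by 0.97 and 0.49, while Jun fell by 0.75 in humanized tissue and stood at -0.16, uncalled, in wildtype. The difference between these Jun values was itself within its error (edgeR interaction, log2 difference -0.59, adjusted p = 0.462). With the GC offsets Mef2c rose by 1.05 and 0.91 and, in humanized tissue, Mef2a by 1.52 and Mef2d by 1.11. Mef2d was at 0.62 in wildtype without the library that stood apart.

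Of 8 listed neuronal substrates of the phosphatase, 7 were tested in each genotype and 4 rose in both, with 3 lower in humanized tissue. These were Nos1, the neuronal nitric oxide synthase, by 2.91 and 2.97 on the log2 scale, Dnm1, the dynamin of synaptic vesicle recycling, by 2.45 and 2.06, Ppp1r1a, an inhibitor of protein phosphatase 1, by 1.53 and 1.22, and Crtc1, a CREB coactivator, by 1.31 and 0.65, the latter at 1.297 with the GC offsets. Among those lower in humanized tissue, Crtc2 fell by 0.69 and Bad fell by 0.72 on the log2 scale. Of 11 genes listed as NFAT targets, only 4 in wildtype and 3 in humanized tissue had counts enough to test, the cytokine genes of T cells among those that did not. Bdnf, a neurotrophin, rose by 2.67 and 3.09 and Gap43, a growth cone protein, by 2.68 and 2.75, Egr3 rose in wildtype, where alone it was tested, and Itpr1 was at -0.48 and -0.11, uncalled. Medians of the tested members were -0.30 and -0.52 for inhibitors and anchors, 0.0065 and 0.12 for kinases, 1.53 and 1.43 for partners, 1.31 and 0.65 for substrates and 2.38 and 2.75 for targets, against -0.015 and -0.040 over all genes tested. Between genotypes, edgeR called 0 genes of these lists at either stage.

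Promoter peaks were then read within 2 kb of each gene's start, which for a gene with several starts is that of its outermost transcript. The labels name different catalogue numbers for the H3K27ac antibody in different fields, and H3K27ac is used here as the labels do. The paper reports that its antibody lot also bound an acetylated lysine of histone H2B, so these peaks may hold that mark too. The H3K27ac lists grew with stage, from 32418 to 37311 peaks at E11.5 to 47132 to 77419 at E17.5. The H3K27me3 lists held 13850 to 21295 and then 19193 to 43700 peaks, and the H3K4me3 lists 23864 to 25080 and then 22945 to 24877. Fold enrichment depends on each library, so peaks were compared by their percentile of fold enrichment within their own list. A percentile depends in turn on the other peaks of its list, and the part of list growth in the stage differences was not tested. An H3K27ac peak was present in every E11.5 list at 7 of the 10 members and in every E17.5 list at 9, against 45.4% and 53.2% of 20783 protein-coding genes. H3K4me3 marked 9 of 10 at both stages, against 61.9% and 62.0%, and H3K27me3 3 of 10 at both, against 19.9% and 19.9%. CTCF peaks were in all 6 lists at Ppp3r1, Rcan2, Nfatc2 and Nfatc4, against 33.0% of genes.

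Ppp3cc, Nfatc2 and Nfatc4 carried H3K4me3 and H3K27me3 together in every list at both stages, as did 18.1% of genes in the E11.5 lists and 17.0% in the E17.5 lists. The most abundant subunits, Ppp3ca, Ppp3cb and Ppp3r1, had no H3K27me3 peak in any list. H3K4me3 is the mark of promoters, H3K27ac of active ones and H3K27me3 of repression by Polycomb. Ppp3cc was the 1 catalytic subunit with all 3 marks.

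**Figure D4:**
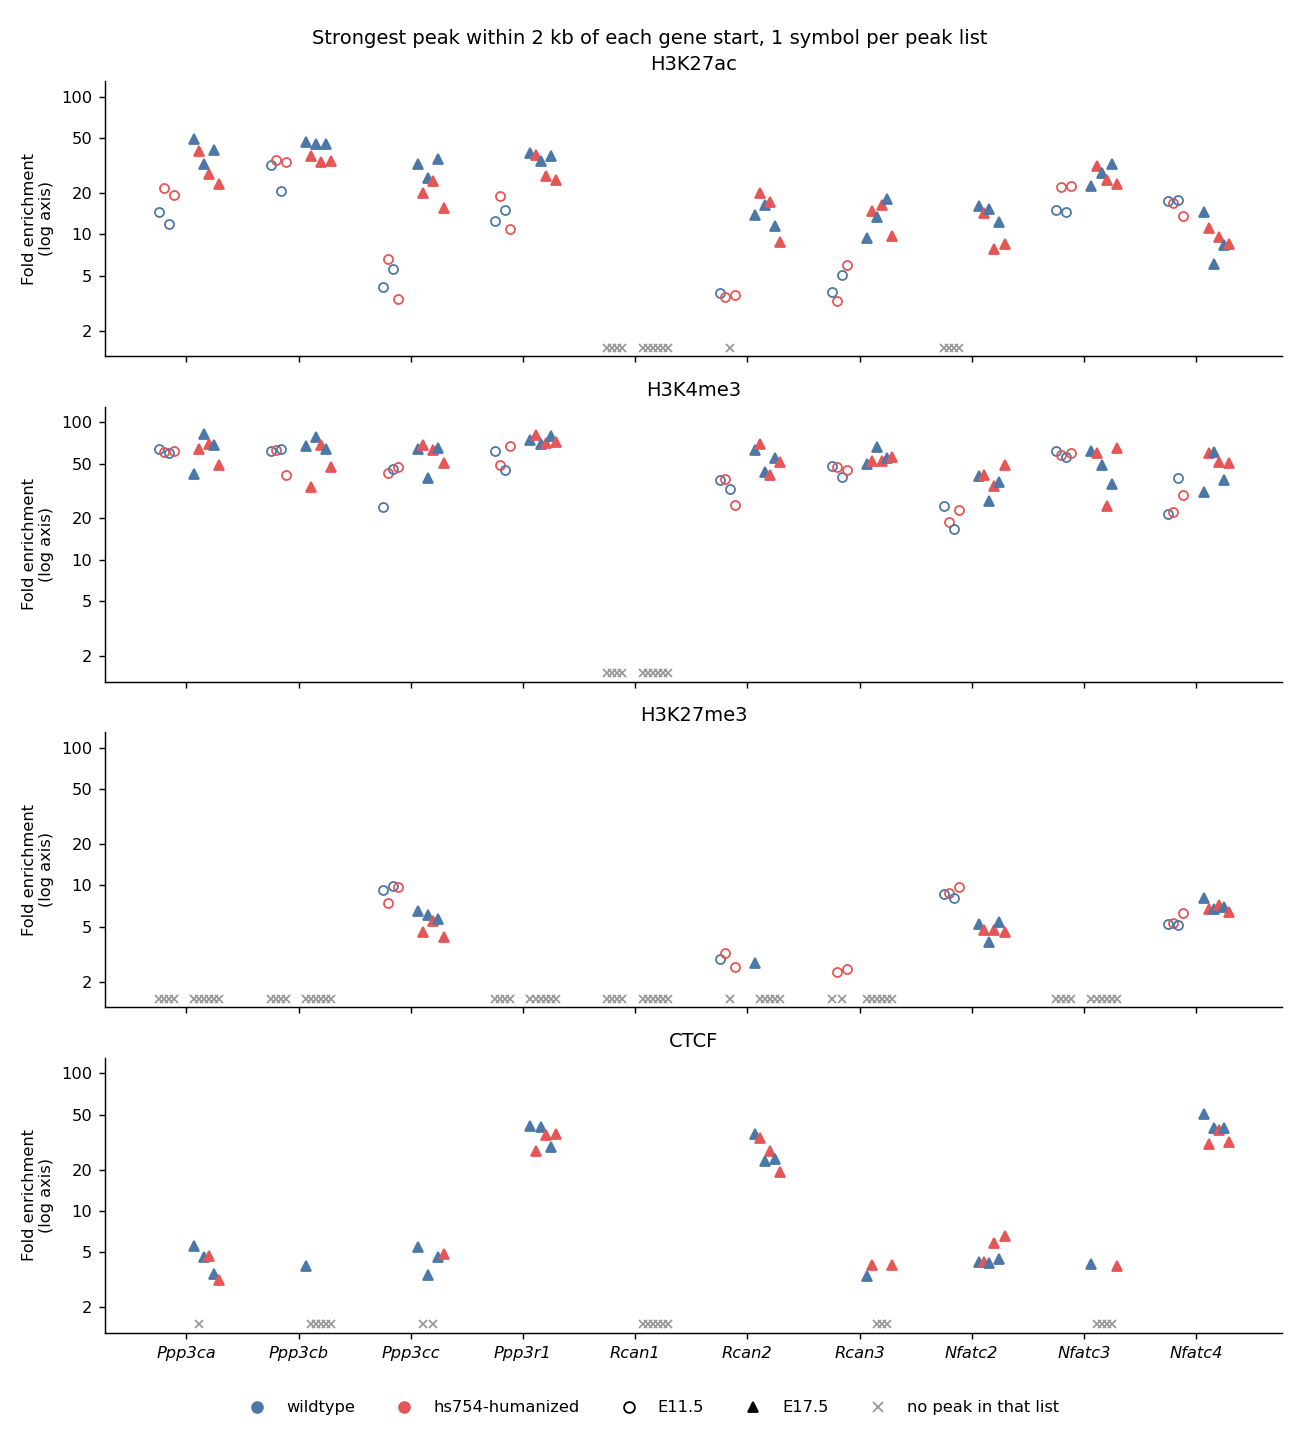
Fold enrichment over input (log axis) of the strongest peak within 2 kb of the start of each gene, with 1 symbol per peak list (open circles E11.5, triangles E17.5, coloured by genotype) and a panel for each of H3K27ac, H3K4me3, H3K27me3 and CTCF; a grey cross marks a list with no peak there. H3K27me3 is present in every list at Ppp3cc, Nfatc2 and Nfatc4, and Rcan1 has only crosses because its outermost start carried no peak of any mark.

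H3K27ac at the Ppp3cc promoter was weak at E11.5 and strong at E17.5. Its fold enrichment at E11.5 was 4.11 and 5.60 in the wildtype lists and 6.60 and 3.41 in the humanized lists, with peaks of 205 to 514 bases. At E17.5 it was 32.3, 25.6 and 35.5 in wildtype and 20.1, 24.2 and 15.6 in humanized lists, with peaks of 1054 to 1310 bases. The percentile went from 42.2 ± 24.3 (SD, n = 4) to 92.3 ± 3.28 (SD, n = 6), a gain of 50.1 (exact permutation test against no change, two-sided, adjusted over 7 members, p = 0.00833). Since 80.3% of starts gained percentile, a member's gain is to be read against that of all starts. All 6 E17.5 lists lay above all 4 E11.5 lists, as at 33.1% of the 9103 starts with a peak in every list, but a gain of this size was at centile 98.8 of those starts, whose median gain was 6.23.

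Rcan3 showed nearly the same. Its H3K27ac fold enrichment was 3.79 and 5.06 in wildtype and 3.29 and 6.01 in humanized lists at E11.5. At E17.5 it was 9.42, 13.3 and 18.1 in wildtype and 14.8, 16.3 and 9.65 in humanized lists. The percentile gain was 46.6 (exact permutation test, adjusted p = 0.00833, n = 6 against 4), at centile 98.0 of all starts. Rcan3 was also the family member nearest to Ppp3cc in RNA profile.

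Of the other members, Ppp3ca gained 6.66 and Ppp3r1 9.04 percentile points, at centiles 51.7 and 59.1 of all starts. Ppp3cb, at 97.2 already at E11.5, moved by 0.553 and Nfatc3 by 2.14 (exact permutation test, adjusted p = 0.590 and 0.172, n = 6 against 4). Nfatc3 RNA fell while its promoter kept H3K27ac at percentile 93.6 ± 1.72 (SD, n = 6). Nfatc4 lost 13.8 points, from 89.9 ± 3.09 to 76.1 ± 6.38 (exact permutation test, adjusted p = 0.0133, n = 6 against 4), with all E17.5 lists below, as at 3.83% of starts, and at centile 1.81.

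**Figure D5:**
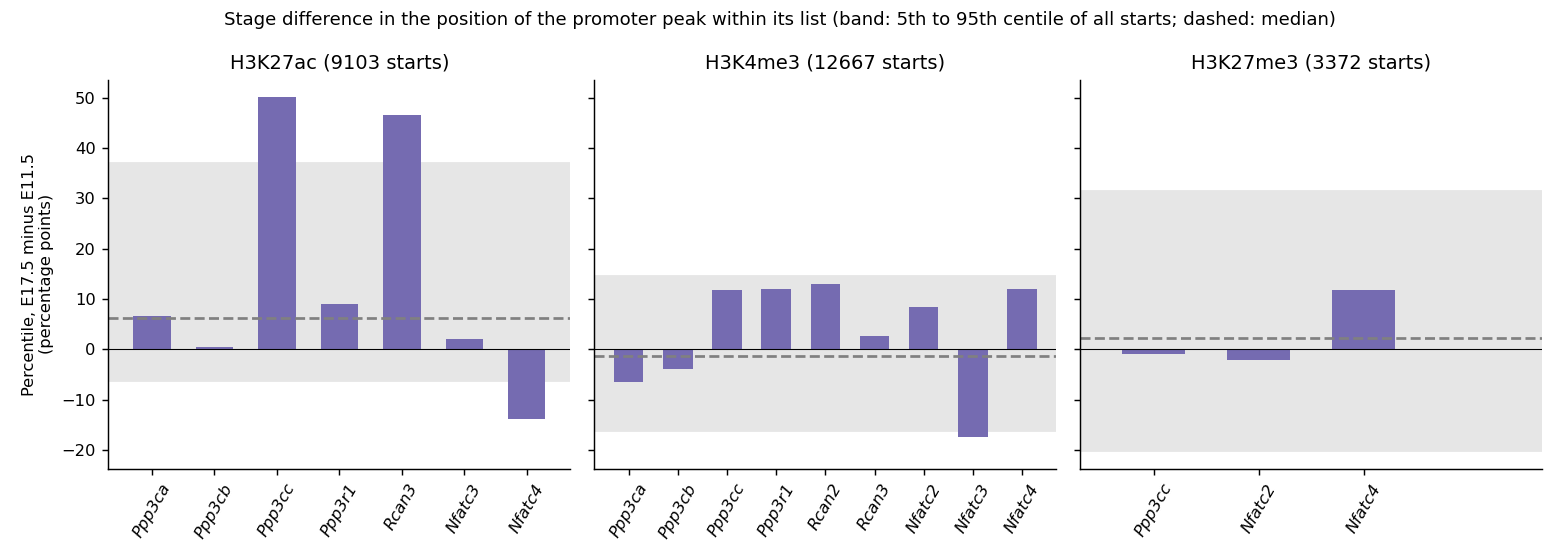
Change in the percentile of the promoter peak within its own list, E17.5 minus E11.5 (bars, percentage points), for the members with a peak in every list, in panels for H3K27ac, H3K4me3 and H3K27me3, with the range from the 5th to the 95th centile of all such starts as a grey band and their median dashed. For H3K27ac, Ppp3cc (50.1) and Rcan3 (46.6) lie above the band and Nfatc4 (-13.8) below it, and for H3K4me3 Nfatc3 (-17.4) lies below it.

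At Nfatc4 the H3K27me3 fold enrichment was 5.21, 5.17, 5.30 and 6.25 in the E11.5 lists and 8.05, 6.73, 6.98, 6.79, 7.17 and 6.38 in the E17.5 lists, the lists of the stages not overlapping. The percentile rose by 11.8 (exact permutation test, adjusted over 3 members, p = 0.0143, n = 6 against 4), at centile 78.4 of 3372 starts, whose median gain was 2.17 and of which 35.6% had all E17.5 lists above and 7.0% all below. With a window of 1 kb, or with a 50% overlap required, 0 members passed for H3K27me3. At Nfatc2 and Ppp3cc the H3K27me3 percentile moved by -2.06 and -0.902 (exact permutation test, adjusted p = 0.493 and 0.824, n = 6 against 4).

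At Ppp3cc the H3K27me3 domain was narrower at E17.5, from 4989 to 5747 bases at E11.5 to 2495 to 3754 bases, and its fold enrichment went from between 7.45 and 9.84 to between 4.21 and 6.47. The H3K4me3 peak widened from between 1522 and 1868 bases to between 3105 and 3287. H3K4me3 peaks also widened without overlap of the stages at Ppp3ca, Rcan2 and Rcan3, and narrowed at Ppp3cb, Nfatc3 and Nfatc4. H3K27me3 fold enrichment fell without overlap at Nfatc2 too. The share of all starts with such changes in width or fold enrichment was not counted. At Ppp3cc the H3K4me3 fold enrichment rose from between 24.2 and 47.1 to between 39.7 and 68.2. Its percentile gain of 11.8 did not pass (exact permutation test, adjusted p = 0.257, n = 6 against 4). The H3K4me3 lists of the stages overlapped at all 9 members with a peak in each, where 5.27% of 12667 starts had all E17.5 lists above and 7.09% all below. For H3K4me3, 0 of 9 members passed by percentile of fold enrichment, and 1, Ppp3r1, had an unadjusted p under 0.05 (exact permutation test, p = 0.0381, n = 6 against 4). Within Ppp3cc, a second region with H3K4me3 in every list of both stages lay at chr14:70478634-70479627 at E17.5, some 47.9 kb downstream of the start. Its fold enrichment was 16.5 to 20.9 in E11.5 lists and 13.0 to 26.4 in E17.5 lists. H3K27ac was present there in every list too, at 4.11 to 7.99 and 2.91 to 11.04.

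At the outermost start of Nfatc2 no E11.5 list had an H3K27ac peak, and the 6 E17.5 lists had fold enrichments of 16.04, 15.4 and 12.4 in wildtype and 14.3, 7.76 and 8.50 in humanized tissue. A peak in every E17.5 list and no E11.5 list occurred at 4.59% of genes, and the Nfatc2 difference did not pass the adjustment (Fisher's exact test, p = 0.00476, adjusted over 30 tests 0.143). The canonical Nfatc2 start, 11.4 kb downstream, had H3K27ac in 0 of 4 E11.5 lists and in 4 of 6 E17.5 lists, at 3.93 to 4.88, and H3K4me3 at 15.5 to 19.3 in the E11.5 lists. No other member had any of the 3 histone marks in every list of one stage and none of the other, which for the E17.5 or the E11.5 lists alone occurred at 0.553% and 0.346% of genes for H3K4me3 and at 1.57% and 1.1% for H3K27me3, and in the E11.5 lists alone at 0.462% for H3K27ac. The H3K27me3 peak at the outermost start was in every list, at 8.07 to 9.79 and 3.87 to 5.41. RNA from Nfatc2 rose in the same interval.

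Rcan1 and Rcan2 use several starts, and the outermost is not always the marked one. At Rcan1 the outermost start had no peak of any mark, while the start 4.593 kb downstream, whose promoter sequence was the one shown without a core, had H3K4me3 in every list at 36.6 to 62.0 (E11.5) and 57.4 to 71.3 (E17.5). The canonical start, 70.7 kb downstream and shown with 3 cores, had H3K4me3 at 18.9 to 22.0 and 15.8 to 26.1, and H3K27ac in every list at 5.83 to 9.17 and 8.57 to 17.9. Both starts were therefore marked at both stages. Gene-level counts do not separate their transcripts. A further start, 12.4 kb downstream, had only CTCF, at 28.8 to 44.8 in all 6 lists.

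At Rcan2, whose RNA rose most, the outermost start had H3K4me3 in every list, at 25.04 to 39.0 and 41.6 to 69.8, and H3K27ac in 3 of 4 E11.5 lists and all 6 E17.5 lists. The canonical start lay 152 kb downstream. It had H3K4me3 in 2 of 4 lists at E11.5, at 4.03 to 4.24, both of them humanized, and in 6 of 6 at E17.5, at 11.8 to 34.4. A further Rcan2 start, 225 kb downstream, had H3K27ac in 0 of 4 lists and then 6 of 6, at 11.7 to 18.6.

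Between genotypes the promoters were compared by the presence of a peak and by its percentile. At 1 member, Rcan3 at E11.5, H3K27me3 was present in both humanized lists, at 2.36 and 2.47, and in neither wildtype list, as at 0.688% of genes (Fisher's exact test, p = 0.333, the smallest 2 against 2 allows). No other member had a promoter peak in every list of one genotype and none of the other, for any mark or stage. Such peaks occurred at 0.712%, 0.135% and 0.688% of genes for H3K27ac, H3K4me3 and H3K27me3 at E11.5, and for the same marks and CTCF at 0.12%, 0.0144%, 0.149% and 0.654% at E17.5. At E11.5, when Ppp3cc RNA differed, its promoter H3K27ac overlapped between genotypes, and so did its H3K4me3 percentile, at 55.0 and 72.9 in wildtype and 72.9 and 76.7 in humanized lists. Its H3K27me3 percentile was lower in both humanized lists, at 91.7 and 90.5, than in the wildtype lists, at 93.0 and 93.4 (exact permutation test, p = 0.333, the smallest 2 against 2 allows). At the edge of that promoter, both humanized lists and neither wildtype list had a small second H3K4me3 peak at chr14:70525011-70525609, in the first 2 kb of the gene, with a fold enrichment of 3.04 to 4.24. This region was picked after its values were seen. Within genes and their 10 kb flanks, regions of both humanized lists and neither wildtype list also occurred at E11.5 at Rcan2 for H3K4me3. They occurred at Rcan3 for H3K27ac and H3K27me3. At E17.5, H3K27ac regions of the wildtype lists alone occurred at Rcan1 and Rcan2. The share of all genes with such regions was not counted. At other members, E11.5 H3K27ac percentiles did not overlap either for Ppp3ca and Nfatc3, higher in humanized lists, and for Nfatc4, lower (exact permutation test, p = 0.333 each). The share of all starts whose percentiles separate by genotype was not counted at either stage.

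At E17.5 the Ppp3cc H3K27ac percentile was lower in all 3 humanized lists than in all 3 wildtype lists, while its RNA was higher (exact permutation test, p = 0.1, the smallest 3 against 3 allows). Ppp3cb H3K27ac was also lower in each humanized list (exact permutation test, p = 0.1, n = 3 each), as were Ppp3cc H3K27me3 and Nfatc4 CTCF. The humanized H3K27ac list with the fewest peaks held 47132, against 62720 or more in wildtype, and the part of list size in these orders was not tested.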

How the data were processed

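Per the labels and the study's methods, polyA-selected RNA was sequenced and aligned with STAR 2.7.9a, and ChIP reads were aligned with Bowtie2 2.4.2, with peaks from MACS2 2.2.7.1. The authors deposited raw read counts per gene for each RNA library (unstranded and by strand, of which the unstranded ones were used). The deposited peak lists, 1 per replicate, hold fold enrichment over input, a ratio that MACS2 computed. The deposited lists also hold −log10 q-values that MACS2 computed. How the H3K27me3 peaks were called is not given in the sources used here. Humanized peak lists are in coordinates of a humanized genome that differs from mm39 on chromosome 13, where no member lies. Every column was mapped to a sample (0 unmapped). Rows naming no gene held 48.1% to 58.4% of reads and were left out. Of 56923 gene IDs, 98.8% matched the GENCODE annotation used for names, lengths and starts.

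Counts were tested with edgeR 4.0.16 (quasi-likelihood, TMM, default filter on low counts, Benjamini-Hochberg adjustment over all genes, call at adjusted p under 0.05) in R 4.3.3, with DESeq2 1.42.0 as an alternative. Genotypes were compared within a stage, stages within a genotype, and the interaction over all 16 libraries. Peaks and shares used Python 3.11.15 with scipy 1.17.1, with exact permutation tests, two-sided, for peaks. A promoter peak overlapped the 2 kb on either side of a gene's start by at least 1 base. Replicates were litters, and none was a duplicate of another. The genes named were the 10 members, the 3 nearest in profile, up to 2 neighbours a side, and up to 4 per pathway list called in both genotypes by size of change, and others were named after their values were seen. Some genes of the pathway lists are not reported here. The members and gene lists were chosen with earlier results of these data known. The edgeR script was tested on simulated data. Alternatives were other scalings, no filter, GC offsets in 20 bins, a replicate block, one fit of all libraries, the strand column, each library left out, and other peak thresholds, windows and overlaps.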

Additional observations from a re-analysis of the deposited data

Results flagged for a closer look

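In 3 of 52 groups of 4 libraries tested with Dixon's criterion, 1 library lay far from the other 3, where chance sets about 1 in 20 groups apart. All were the E17.5 wildtype replicate 1 library. It had 248 CPM of Ppp3r1, against 362 to 384 in the other E17.5 wildtype libraries. It had 191 CPM of Rcan1, against 82.9 to 83.8, and 230 CPM of Rcan3, against 137 to 147. The same library had the lowest median correlation with its group, 0.935.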

How the results depend on the processing

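With offsets for gene GC content the direction turned, uncalled in each case, for the genotype difference at E11.5 of Ppp3cb (0.049), Ppp3r1 (0.015), Rcan1 (-0.067), Nfatc2 (-0.0012), Nfatc3 (0.00025), Slc39a14 (-0.0089) and Polr3d (-0.070). It turned at E17.5 for Ppp3cb (-0.16), Ppp3r1 (-0.21), Nfatc3 (-0.029), Nfatc4 (0.17) and Slc39a14 (0.073), and in the interaction for Ppp3cb (-0.21), Ppp3r1 (-0.19), Nfatc3 (-0.068) and Nfatc4 (0.11). It also turned for the humanized stage difference of Ppp3cb (-0.14), and the cause was not tested. Rcan3 at E11.5 turned to 0.0050 with no filter and to 0.024 in the fit of all 16 libraries. Leaving out 1 library at a time gave -0.051 to 0.050 for Rcan3 at E11.5, -0.0086 to 0.29 for Rcan2 and -0.25 to 0.12 for Nfatc4 at E17.5, -0.0040 to 0.12 and -0.17 to 0.098 for Slc39a14 at E11.5 and E17.5, and -0.012 to 0.13 for Polr3d at E11.5. With Ppp3cc left out, at most 1 member lost its call in any setting of either stage comparison, and members called between genotypes stayed at 0. The Ppp3cc share in wildtype, a description, was higher at E17.5 by 2.69 to 4.31 points with 1 library left out. Members past the percentile test for H3K4me3 numbered 4 by −log10 q, against 0. For H3K27me3 they numbered 3 at a −log10 q of at least 5, 2 with any protein-coding transcript start, 0 with a 1 kb window and 0 with a 50% overlap, against 1, and H3K27me3 peaks in every E17.5 list with a 50% overlap were at 1 member, against 3. Same-numbered libraries were not treated as pairs: their deviations correlated from -0.45 to 0.48, and in no comparison did every library correlate best with its own number. Between genotypes at E17.5, replicates 1 and 2 did correlate best with their own number, at 0.47 and 0.48. Whether these libraries shared a preparation was not tested. With the replicate number as a block, Ppp3cc differed by 1.04 at E11.5 and 0.42 at E17.5. Every member other than Ppp3cc, whose stage differences are a description, was called in each stage comparison, and 0 were called between genotypes. Of the named genes 1 call, Ppia in wildtype, was lost (edgeR adjusted p = 0.0938). At this depth 7 of 11 NFAT target genes could not be tested in wildtype.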
